A study of Sordaria macrospora with 8 samples.

Results

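The regions described here are narrow H3K56ac peaks of *Sordaria macrospora* that were found at overlapping places in the wild type and in the Δasf1 mutant. They were chosen by position alone. A pair consisted of 1 wild-type peak and 1 Δasf1 peak that overlapped no other peak of the other list by 1 bp or more, that shared at least 50% of the length of each, and that were both narrower than 1500 bp. This gave 1036 pairs out of 7430 wild-type and 7117 Δasf1 peaks, which is 13.9% of the wild-type list and 14.6% of the Δasf1 list. Among the narrow peaks alone, the pairs took up 29.9% of 3460 wild-type peaks and 29.5% of 3514 Δasf1 peaks. The pairs together covered 837 kb in both strains, with a median shared stretch of 785 bp.

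ASF1 is a histone chaperone that binds the H3-H4 dimer and hands it over during nucleosome assembly and disassembly. In yeast, ASF1 also presents newly made histone H3 to the acetyltransferase Rtt109, which acetylates a lysine close to the point where DNA enters and leaves the nucleosome. This mark, H3K56ac, accompanies new histones behind the replication fork and at sites of nucleosome exchange, and deletion of the chaperone gene strongly reduces it in yeast. Peaks that were called in both strains of *S. macrospora* therefore show where enrichment over the local background was found with and without the chaperone. Peak lists of this kind carry no information on the absolute amount of the mark.

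The study compared mycelium of the wild type, grown for 2 days, with mycelium of Δasf1, a strain without the asf1 gene, grown for 3 days, both at 27°C, with 2 immunoprecipitated and 2 input samples per strain. After fixation in 1% formaldehyde for 15 min, micrococcal nuclease (230 U/ml, 105 min) cut the chromatin for immunoprecipitation with 10 µl of an antibody against H3K56ac. The Δasf1 strains used by this group also carry a duplicated stretch of chromosome 2, so the deletion, the duplication and the additional day of growth cannot be told apart. Each strain had 1 list, labelled as pooled, whose peak names carry the code of a single library, and it is uncertain whether a list stands for both replicates. The lists hold no value per replicate and no read counts, so the depth is unknown, no spread between replicates could be calculated and no difference between the strains was tested. Intervals below treat pairs as units and cover counting error only.

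The narrow peaks of both strains coincided far more often than their widths alone would bring about. If all narrow peaks of a chromosome lay at even and independent positions, 174 pairs would be reached by an overlap of at least 50% of each peak, whereas 1036 were found, 5.95 times as many. Overlaps of any size between narrow peaks numbered 1407 against 539.5 at even positions, 2.61 times as many. Where narrow peaks overlapped at all, 73.6% (Wilson 95% interval 71.3 to 75.9%) shared at least 50%, compared with 32.3% at even positions. The calculated reference takes no account of the preference of both lists for genes, which alone brings peaks closer together, and it is a reference value and not a test. The pairs came from 1400 narrow pairs that were one-to-one, of which 364 overlapped by less than 50%.

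Most single edges of the pairs lay close together, within the limits that the overlap rule sets. The peaks had a median width of 891.5 bp in the wild type and 888.5 bp in Δasf1, and the shared stretch had a median of 88.4% of the wider peak. The lower-coordinate edge differed by a median of 40 bp (interval of the median 36 to 45 bp) and the higher-coordinate edge by 39 bp (36 to 44 bp), without regard to direction. For comparison, the narrowest peak of the wild-type list was 270 bp wide and that of the Δasf1 list 266 bp, so most edges moved by much less than the shortest stretch listed. Of all 2072 edges, 57.5% lay within 50 bp and 74.7% within 100 bp of each other. Identical positions were found for 20 lower and 31 higher edges, and no pair had both edges identical.

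**Figure D1:**
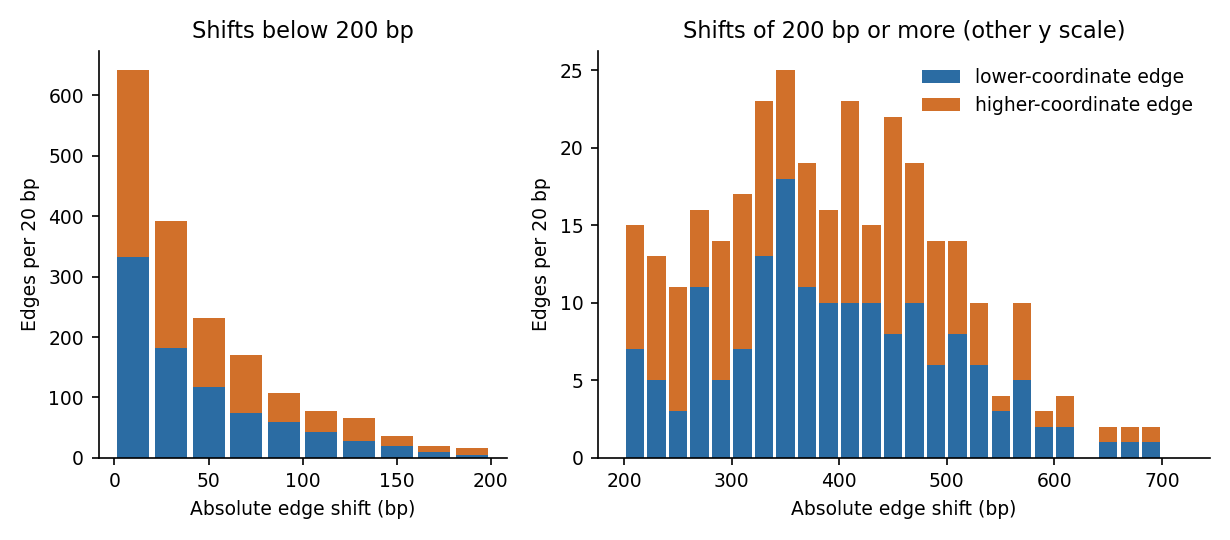
Number of edges (y axis, per 20 bp) by absolute shift between wild type and Δasf1 in bp (x axis), for lower- and higher-coordinate edges of 1036 pairs, with shifts below 200 bp on the left and larger ones on the right at another y scale. Most edges moved by less than 50 bp, and after a low between 200 and 300 bp the number was again higher between 300 and 500 bp.

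Most edge shifts were small, and their number showed a shallow second rise at larger shifts. This rise rests on small counts and was not tested. Below 50 bp there were 1175 edges, and the number decreased to 35 between 200 and 250 bp and 34 between 250 and 300 bp. It was 51 between 300 and 350 bp, 49 between 350 and 400 bp and 50 between 400 and 450 bp, before it decreased again. The upper end of this range is limited by the overlap rule, which allows no shift of more than 50% of the wider peak. Among the wider pairs (mean width of 1000 bp or more), where the limit lies higher, the same low was seen, with 9 edges between 250 and 300 bp and 22 each between 350 and 400 bp and between 400 and 450 bp.

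The larger shifts usually concerned a single edge of a pair. The overlap rule leaves less room for both edges to move far outwards or inwards than for 1, so this is partly set by the rule. In 576 pairs (55.6%) both edges lay within 100 bp, in 277 pairs (26.7%) exactly 1 edge had moved by more than 200 bp, and in 18 pairs (1.74%) both had. In the 277 pairs with a single moved edge, this edge differed by a median of 381 bp while the other one differed by 31 bp. The moved edge was the lower-coordinate one in 145 and the higher-coordinate one in 132 pairs. It lay further out in Δasf1 in 124 pairs and further in in 153 pairs, so that neither strain had the longer peaks throughout. By edge, it lay further out in 51 of the 145 lower-coordinate and in 73 of the 132 higher-coordinate cases. Over all pairs, the Δasf1 peak was wider in 511 and narrower in 523, and the width ratio had a median log2 value of -0.0026.

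**Figure D2:**
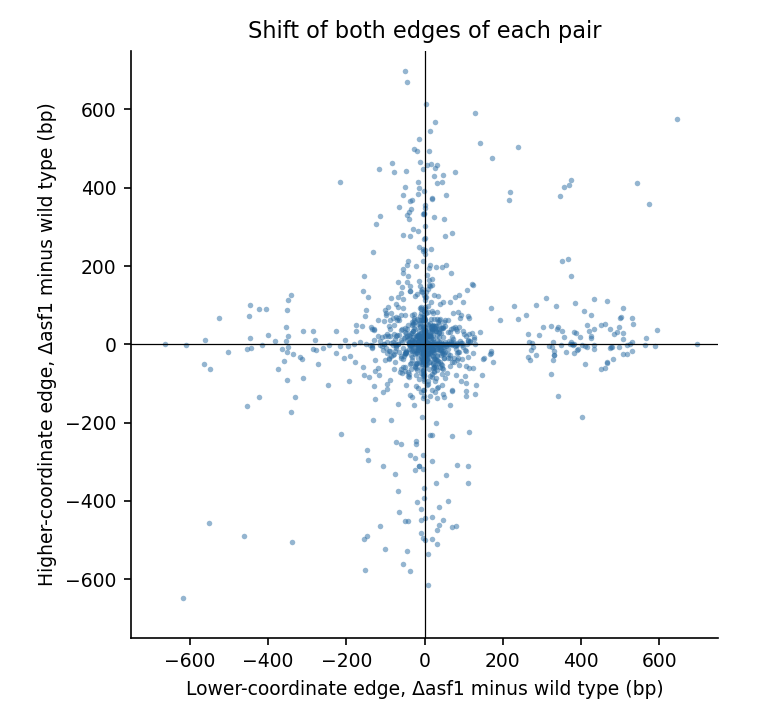
Shift of the higher-coordinate edge (y axis) against the shift of the lower-coordinate edge (x axis) in bp, Δasf1 minus wild type, with 1 point for each of 1036 pairs. The points form a dense centre and a cross along both axes, which are the 277 pairs with a single edge moved by more than 200 bp. The overlap rule limits where points can lie.

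The centres of the pairs differed by a median of 41.5 bp (36.5 to 45 bp). The overlap rule itself would have allowed a median shift of up to 408 bp, and the observed shift was a median of 0.108 of this limit. As a reference value, even positions would give a median of 50% of the limit, with 10% of pairs in each 10% of it. In 498 pairs (48.1%) the centre shift was at most 10% of its limit, and in 168 pairs (16.2%) it exceeded 50% of it. The Δasf1 centre lay at the higher coordinate in 564 pairs and at the lower one in 467, and the signed median was 4.5 bp (1.5 to 9 bp).

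The closest pairs differed by 1 or 2 bp at an edge. On chromosome 2, a peak from 2666149 to 2666693 in the wild type (coordinates of assembly Sm_v04) ran from 2666148 to 2666694 in Δasf1, inside the gene SMAC4_04036. Fold enrichment over the local background was 1.25 here for the wild type and 1.21 for Δasf1. Next came a pair in SMAC4_03114 at 4426688 to 4427511 in the wild type, with shifts of 2 and 0 bp, and a pair in SMAC4_07018 at 1726811 to 1727966, with shifts of -2 and -1 bp. The summed shift of the last, 3 bp, was shared by 4 further pairs on chromosomes 2, 5 and 7, in SMAC4_06635, SMAC4_06795, SMAC4_03436 and SMAC4_07667, which the ranking placed after it by coordinate only. The 3 pairs described lay inside genes, at widths of 545, 824 and 1156 bp in the wild type.

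Very short peaks were also found again. The narrowest pair, in SMAC4_05017 on chromosome 1, was 281 bp wide in the wild type (1218225 to 1218505) and 270 bp wide in Δasf1. The fold reached 1.45 there for the wild type and 1.33 for Δasf1, both well above the medians of the pairs. A pair in SMAC4_02628 on chromosome 2 measured 283 and 287 bp, with a fold of 1.39 and 1.38, and a pair in SMAC4_06262 on chromosome 5 measured 280 and 296 bp, with a fold of 1.35 and 1.32. These 3 short members had edges within 50 bp of each other and belonged to the 81 pairs with a fold above 1.3 in both strains.

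At the other end were pairs with both edges far apart in the same direction. Whether a peak had moved or separate peaks overlapped was not tested. The 3 largest centre shifts, all on chromosome 5, were -632, 611 and -504 bp. These pairs shared 54.85, 56.2 and 54.3% of the wider peak. The pair in SMAC4_04134 ran from 1550914 to 1552346 in the wild type and from 1550297 to 1551699 in Δasf1. Both of its edges thus lay at lower coordinates in Δasf1, by 617 and 647 bp, and its fold was 1.204 and 1.208. The pair in SMAC4_06263 had both edges at higher coordinates by 646 and 576 bp, and that in SMAC4_04139 at lower coordinates by 552 and 456 bp. Their −log10 q, the significance that the authors' lists give for a peak, lay between 1.49 and 2.40 in both strains.

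Edges were closer together the stronger a pair was. When the pairs were ranked by the lower of both −log10 q values and cut into 4 equal groups, both edges lay within 100 bp in 42.9, 51.7, 59.5 and 68.3% from the weakest to the strongest group. The larger edge shift of a pair had medians of 119, 93, 74 and 60 bp in the same order. The rank correlation between this shift and the lower −log10 q was -0.22 over the 1036 pairs, a weak relation given as a description. By mean width, both edges lay within 100 bp in 75.3% of 73 pairs below 500 bp. The share was 54.5% in 563 pairs between 500 and 1000 bp and 53.5% in 400 wider pairs. The overlap rule allows narrower pairs only smaller shifts, so the higher share below 500 bp is partly set by it.

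Compared with other pairs of the same lists, the narrow pairs were the better aligned ones, which the rule largely fixes. Of 1985 one-to-one pairs with the same relative overlap but a peak of 1500 bp or more, 21.8% had both edges within 100 bp, and their larger edge shift had a median of 535 bp. No pair belonged to the lists of unique peaks that the authors made for each strain (1389 wild-type and 920 Δasf1 peaks). The rule largely fixes this too, since each peak of a pair overlaps a peak of the other strain.

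Fold enrichment was similar in both strains and low throughout. The fold of the pairs had a median of 1.249 in the wild type, between 1.17 and 1.49, and of 1.253 in Δasf1, between 1.16 and 1.47. The narrow peaks outside the pairs were a little weaker, with medians of 1.231 in 2424 wild-type and 1.237 in 2478 Δasf1 peaks. The median −log10 q was 2.21 for the wild-type peaks of the pairs and 2.54 for their Δasf1 peaks, and the Δasf1 value was the higher one in 627 pairs (60.5%), compared with 66.5% of all one-to-one pairs. The lowest −log10 q was 1.03 in the whole wild-type list and 1.04 in the whole Δasf1 list. In the weakest of the 4 groups by −log10 q, the lower value of a pair was between 1.04 and 1.56, close to this floor. The fold of both strains was related across pairs with a rank correlation of 0.38, given as a description, since both values come from the same positions of the genome.

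For each pair, the log2 ratio of the Δasf1 fold to the wild-type fold was taken and the median over all 4362 one-to-one pairs, 0.012, was subtracted. This centred ratio had a median of -0.0067 (interval of the median -0.013 to -0.0018) and an SD over pairs of 0.066. Without centring the median was 0.0055, and the Δasf1 fold was the higher one in 547 pairs, so the direction depends on the centring. A pair was counted as different where the centred fold of either strain exceeded that of the other by at least 5%. With this limit, 122 pairs (11.8%) were higher in Δasf1, against 11.5% of all one-to-one pairs, and 165 pairs (15.9%, Wilson 95% interval 13.8 to 18.3%) were lower, against 11.7%. The share of higher pairs was thus near that of the background, and the share of lower pairs was above it. Among the 1985 pairs with a wider peak, 12.0% were higher and 7.91% lower. The 364 narrow one-to-one pairs with a smaller overlap were close to the pairs described here, with 12.1% higher and 14.6% lower. A share of lower pairs above the background was thus not particular to the pairs with the larger overlap.

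**Figure D3:**
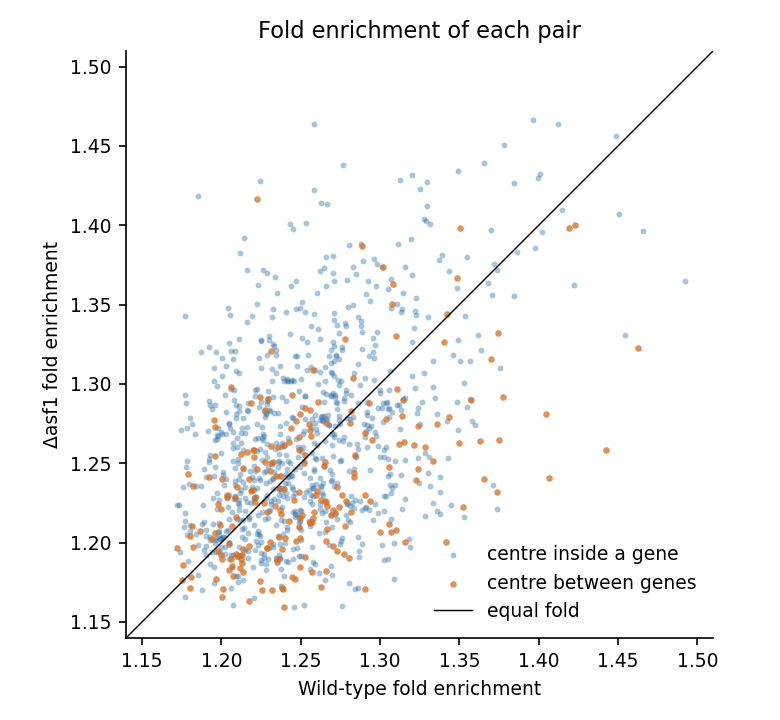
Fold enrichment in Δasf1 (y axis) against fold enrichment in the wild type (x axis), with 1 point per pair, coloured by whether the centre lay inside a gene (819 pairs) or between genes (217 pairs). The line marks equal fold. In 137 of 217 pairs between genes and in 352 of 819 inside genes the Δasf1 fold was the lower one.

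The pairs were also ranked by the mean fold of both strains. The first was a pair in SMAC4_06561 on chromosome 2 (2315708 to 2316883 in the wild type and 2316070 to 2316864 in Δasf1), with a wild-type fold of 1.45, a Δasf1 fold of 1.46 and a −log10 q of 7.15 and 7.65. The third, in SMAC4_06559, lay only 12.1 kb away and was 288 bp wide in the wild type and 320 bp in Δasf1, with a fold of 1.40 and 1.47. The second was found on chromosome 3 at 2819300 to 2820346, near an end of SMAC4_04659, with a fold of 1.41 and 1.46. Only 14 of the 1036 pairs had a mean fold above 1.4, and the strongest of 4 equal groups by mean fold began at 1.28.

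Pairs with the largest differences in fold lay at different kinds of places. The 3 pairs with the highest ratio all had their centre inside a gene, as did 79.1% of all 1036 pairs. In SMAC4_13445 on chromosome 3 the wild-type fold was 1.19 and the Δasf1 fold 1.42, and the lower-coordinate edge had moved inwards by 593 bp. In SMAC4_09530 on chromosome 7 the fold was 1.22 and 1.43, and in SMAC4_09592 on chromosome 1 it was 1.26 and 1.46, and both of these peaks were wider in Δasf1. Of the 3 pairs with the lowest ratio, 2 had their centre between genes. A pair on chromosome 2 from 953429 to 954532, whose centre lay 131 bp outside SMAC4_07851 so that the peak overlapped this gene, had a wild-type fold of 1.44 and a Δasf1 fold of 1.26, although its edges differed by only 6 and 0 bp. On chromosome 1, a pair from 2091684 to 2092599, with its centre 6.29 kb from the nearest gene SMAC4_06796, had a fold of 1.41 and 1.24, and the third, inside SMAC4_05041 on chromosome 2, had a fold of 1.37 and 1.22. A peak could thus keep its edges to within a few bp and differ in its fold.

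This split between genes and intergenic stretches was found across the whole set. It was examined after the values of the named pairs had been seen. The 819 pairs inside genes had a median wild-type fold of 1.249 and a median Δasf1 fold of 1.261, whereas the 217 pairs between genes had 1.249 and 1.230. The median centred log2 ratio was -0.00063 (interval of the median -0.0055 to 0.0044) inside genes and -0.035 (-0.046 to -0.025) between genes. Between genes, 55 pairs (25.3%, Wilson 95% interval 20.02 to 31.5%) were lower in Δasf1 by at least 5% and 6 (2.76%) were higher. Inside genes the numbers were nearly balanced, with 110 lower (13.4%) and 116 higher (14.2%), while over all one-to-one pairs 11.7% were lower and 11.5% higher. Over the 928 one-to-one pairs of any width between genes, members included, 16.9% were lower and 5.93% higher.

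The same order of the medians was seen on every chromosome and at every peak strength. The intervals overlapped on several chromosomes and in the middle groups by strength. The pairs between genes had the lower median ratio on all 7 chromosomes, from -0.0186 against -0.0048 inside genes on chromosome 2 to -0.0495 against -0.0045 on chromosome 3. The Δasf1 fold was the lower one in 13 of 25 pairs between genes on chromosome 5 and in 22 of 26 on chromosome 6, the ends of the range. On chromosomes 2, 4, 5 and 7 the interval of the between-gene median included 0, and on chromosome 2 the share called lower was 13.3% between genes and 13.9% inside them. In the 4 groups by −log10 q the medians between genes were -0.037, -0.035, -0.024 and -0.040, compared with -0.0021, 0.0058, -0.0043 and 0.00043 inside genes. In the third of these groups the interval of the between-gene median, -0.054 to 0.00068, included 0. The distance from the gene made little difference: the median was -0.031 in 74 pairs within 500 bp of a gene end, -0.042 in 58 pairs up to 1500 bp away and -0.038 in 85 pairs beyond that.

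**Figure D4:**
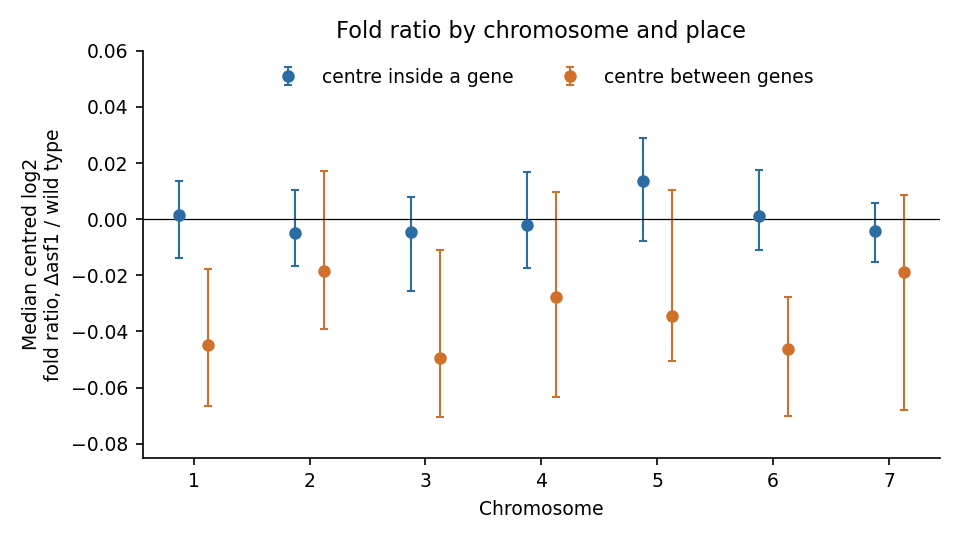
Median centred log2 ratio of the fold in Δasf1 to that in the wild type (y axis) on each chromosome (x axis), for pairs with their centre inside a gene and between genes; bars are 95% order-statistic intervals of the median over pairs. On all 7 chromosomes the median of the pairs between genes lay below that of the pairs inside genes.

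The lower ratio between genes was not particular to narrow pairs with a good overlap, though it was largest there. In the other 3326 one-to-one pairs the median was -0.012 between genes (interval -0.017 to -0.0071) and 0.0051 inside genes. Among these, the pairs with a wider peak had -0.0071 between and 0.0094 inside genes, and the narrow pairs with less than 50% overlap had -0.025 and -0.0036. The intergenic members were no different in wild-type strength, with a −log10 q of 2.16 in the wild type against 2.23 inside genes, but had 2.06 in Δasf1 against 2.70. Their edges were at least as steady, with both edges within 100 bp in 64.5% of the pairs between genes and 53.2% of those inside genes.

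Most pairs belonged to genes. The centre lay inside a protein-coding gene in 819 pairs (79.1%, Wilson 95% interval 76.5 to 81.4%), compared with 70.6% of all wild-type and 77.8% of all Δasf1 peaks, and with 58.0% of the assembly. The wild-type peaks of the pairs were inside genes more often than the other narrow wild-type peaks (79.0 against 64.6%), while the difference was small in the Δasf1 list (79.2 against 76.7%). The share increased with the strength of the pair from 72.6% in the weakest to 85.3% in the strongest of the 4 groups. The shared stretch touched a single gene in 863 pairs, 2 genes in 26 and none in 147. In all, 802 genes held the centre of a pair, 7.78% of 10309 protein-coding genes, and 635 pairs had both peaks wholly inside their gene.

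In genes shorter than 3 kb the pairs leaned to the middle. The median distance from the centre of a pair to the nearer gene end was 420 bp in 215 pairs in genes shorter than 1500 bp, 705 bp in 161 pairs in genes of 1500 to 2000 bp and 913 bp in 213 pairs in genes of 2000 to 3000 bp, whereas centres spread evenly over genes of the median length would give 294, 445 and 601 bp. A peak that fits inside a short gene has to be near its middle, so part of this follows from the widths. Over all genes, the middle 20% of the gene length held 35.4% of the pairs, compared with 24.1% of the other narrow wild-type peaks and 33.7% of the other narrow Δasf1 peaks.

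In long genes the pairs were most frequent some way in from an end. Of the 230 pairs in genes of 3 kb or more, 11.7% had their centre in the middle 20% of the gene length and as many within the outer 10% at either end. The distance from the nearer gene end had a median of 949 bp (interval 867.5 to 1028 bp), within which the 1010 bp of an even spread also lay, so that the pairs differed from even spread in how they gathered and not in the median. Between 500 and 1250 bp from the nearer end, each step of 250 bp held 45 or 46 pairs, compared with 27.6 if centres were spread evenly over the same genes. The first 250 bp held 12 pairs, and the step from 2000 to 2250 bp held 2 pairs against 9.02 at even spread. The median distance increased with gene length, but less than even spread would. It was 842 bp (752.5 to 963.5 bp) in genes of 3 to 4 kb and 991.5 bp (907.5 to 1111 bp) in genes of 4 to 6 kb. In longer genes it was 1110 bp (964 to 1949 bp). Even spread would give 850, 1192 and 1772 bp, and the interval in the longer genes included its value. The other narrow peaks were similar in genes of 3 to 4 kb (849 bp in the wild type and 999 bp in Δasf1) and of 4 to 6 kb (1010 and 1065 bp). In longer genes they had 1467.5 bp in the wild type and 1194 bp in Δasf1, against an interval of 964 to 1949 bp for the 33 pairs there. The gene table gives no strand, so it is not known which end of a gene the pairs lay at.

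**Figure D5:**
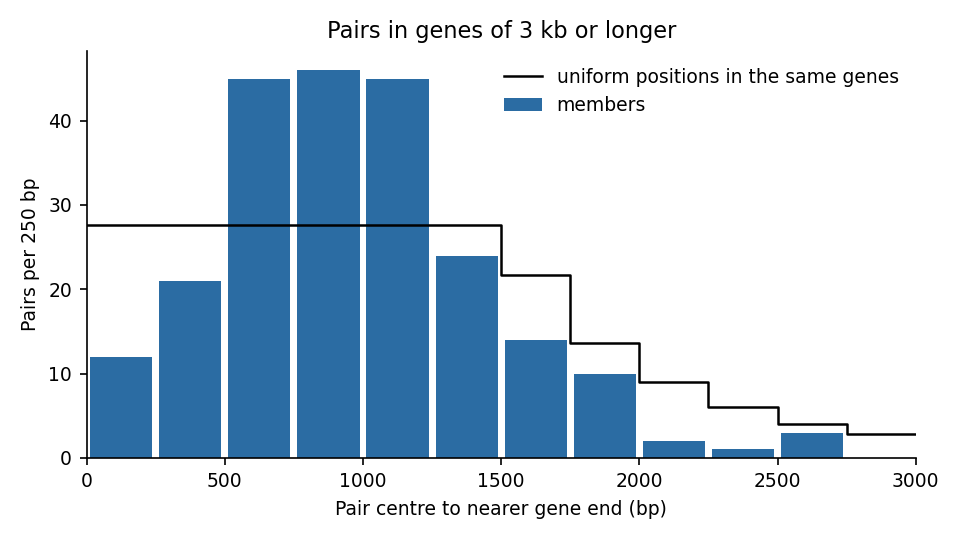
Number of pairs (bars, per 250 bp) by the distance of the pair's centre from the nearer gene end in bp (x axis), for 230 pairs in genes of 3 kb or longer, of which 7 lie beyond the axis. The line gives the number for centres spread evenly over the same genes. The pairs were most frequent between 500 and 1250 bp.

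Several pairs in a single gene were rare. Of the 802 genes, 15 held 2 pairs and 1 held 3, and these 16 genes had a median length of 4707.5 bp compared with 1927 bp for all protein-coding genes. In SMAC4_02128 on chromosome 4 (5186 bp long) the pairs lay near opposite ends, 937.5 and 347 bp from them, with a fold of 1.29 and 1.34 for the first and of 1.29 and 1.32 for the second, wild type before Δasf1. In SMAC4_00846 on chromosome 3 the first pair had a wild-type fold of 1.30 and a Δasf1 fold of 1.22, whereas that of the second was 1.27 and 1.31, so neighbouring peaks of a gene could differ in opposite directions. At the histone H3 gene SMAC4_02363 the wild type had a peak of 1779 bp and Δasf1 a peak of 459 bp, too different in width to form a pair. A tRNA gene was overlapped by 1 pair, compared with 9 of 3460 narrow wild-type and 3 of 3514 narrow Δasf1 peaks, and the rRNA genes by none.

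Along the chromosomes the pairs were scattered among the other peaks. Neighbouring pairs were a median of 24.9 kb apart, from 1.65 to 266 kb, and 25.3% of the distances were within 10 kb. The gap from a member to the next peak of its own list had a median of 2278.5 bp in the wild type and 2510 bp in Δasf1, near the 2238 and 2476 bp of all peaks, and no gap in either list was smaller than 1066 bp. The next peak was itself a member in 18.2% of cases in the wild-type list and 18.3% in the Δasf1 list, compared with 12.4 and 13.3% after other narrow peaks. The longest run of consecutive members was 5 peaks, and 344 members of the wild-type list lay in runs of at least 2. A member was no more surrounded by shared peaks than others: both neighbours overlapped a peak of the other strain in 69.0% of members and 69.3% of all peaks in the wild type, and in 78.1 and 78.8% in Δasf1.

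Chromosome 6, the chromosome that carries asf1 in the wild type, was richest in pairs. It held 153 pairs, 35.8 per Mb, compared with 26.3 per Mb over all chromosomes and 21.4 per Mb on chromosome 1, the poorest. The narrow peaks themselves numbered 97.4 per Mb on chromosome 6 and 83.2 per Mb on chromosome 1 in the wild type. Related to the narrow wild-type peaks, 36.8% (Wilson 95% interval 32.3 to 41.5%) were members on chromosome 6 and 25.7% (22.7 to 28.9%) on chromosome 1. The other chromosomes lay between 26.3 and 32.2%. Related to the narrow Δasf1 peaks, the share was 35.7% on chromosome 6, 34.96% on chromosome 7 and 24.4% on chromosome 1. Chromosome 7 had as many narrow wild-type peaks per Mb as chromosome 6 (98.0), but 31.5 pairs per Mb.

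In the duplicated parts of chromosome 2, which are bounded here by the outermost of their 112 genes, 10 pairs were found, 5 in each part. Their fold was lower in Δasf1 in 8 of 10, while their −log10 q was higher in Δasf1 in 8 of 10, compared with 46.9 and 60.3% of the 1026 pairs elsewhere. For example, the pair in SMAC4_05554, a CCHC-type zinc finger gene, had a wild-type fold of 1.30, a Δasf1 fold of 1.28 and a −log10 q of 3.59 and 6.28. In SMAC4_05567, listed as the transcriptional coactivator Hfi1, a subunit of the SAGA complex in yeast, the fold was 1.26 and 1.22 and the −log10 q 2.54 and 3.62. Copy number and acetylation cannot be told apart in these parts.

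SMAC4_04393, an SPX-domain gene in the second part, was the only gene with 3 pairs. SPX domains bind inositol pyrophosphates and occur in proteins of phosphate homeostasis. From lower to higher coordinates, wild type before Δasf1, their fold was 1.29 and 1.38, then 1.198 and 1.206, then 1.25 and 1.16. The first of these had the highest −log10 q of all Δasf1 peaks in the pairs, 9.84, compared with 2.85 in the wild type, and the last had 1.87 compared with 2.26. Within a single gene, 3 short peaks were thus called in both strains at differing ratios. Both edges of the middle pair lay at higher coordinates in Δasf1, by 370 and 407 bp.

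The limits of the rule cut through a continuum. The pair with the smallest overlap, in SMAC4_06220 on chromosome 5, shared exactly 50% of its wider peak (902 bp in the wild type and 500 bp in Δasf1, with a fold of 1.26 and 1.37). The next, in SMAC4_02023 on chromosome 7, shared 50.05%. Just outside, pairs on chromosomes 1 and 5 shared 49.7 and 49.5%, with widths of 535 and 300 bp and of 1360 and 1118 bp and a fold of 1.42 and 1.43 and of 1.28 and 1.18. At the width limit, the widest members measured 1498 bp in Δasf1 (SMAC4_05567 in the duplicated part) and 1496 bp (SMAC4_00105 on chromosome 4), while the nearest pairs outside had a wild-type peak of 1500 bp each, with overlaps of 97.6 and 92.7% and a fold of 1.24 and 1.28 and of 1.26 and 1.25.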

How the data were processed

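For each of the 2 strains the authors deposited all peaks of a pooled list and, as a separate list, those unique to it, 4 lists altogether. The submitters' processing notes name fastp, Bowtie2 and MACS2; their versions, roles and settings are not given in the sources used here. In the deposited lists each peak has its start and end, a fold enrichment (a linear ratio over the local background), and the −log10 p and −log10 q as the authors' caller gave them, in the column order of broad peaks. Positions are printed 1-based in assembly Sm_v04.

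Pairs were found by the rule given above with Python 3.11.15, pandas 2.3.3, numpy 2.4.6 and scipy 1.17.1, after the search had been tested on simulated peaks. The pairs and all lists were chosen with earlier results of these data known. Reference numbers for even positions were calculated in closed form, without drawing positions at random. Intervals of shares are Wilson intervals and intervals of medians are order-statistic intervals, at 95%. Since each strain has 1 list, no test was made.

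Genes and locus tags came from a table of 10309 protein-coding genes of strain SN1693 (ASM3387043v1), which gives no strand and no products, so gene starts and product groups were not examined. Peak centres of the wild type lay in genes in 70.6% without a shift and in at most 58.7% when moved by 5 to 50 kb, and no coordinate of this table is printed. Tags and products of the duplicated parts came from the study's gene list, without its values. The length of a chromosome was taken as its last gene or peak position.

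Named are the 3 pairs with the highest mean fold, the highest and lowest centred ratio, the smallest summed edge shift, the smallest width and the largest centre shift, the 2 pairs on either side of each limit, genes with several pairs as examples, and pairs in the duplicated parts. The genes with several pairs and the histone H3 gene were chosen after their values were seen.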

Additional observations from a re-analysis of the deposited data

How the results depend on the processing

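Under 12 other settings, 47 of 94 recomputed values stayed within their interval (for counts, within 1.5 times) and 47 moved; none is a test. The number of pairs was 487 with −log10 q of at least 2, 303 with equal numbers of peaks (the 3558 strongest of each list), 525 below 1000 bp and 684 at 80% overlap, since fewer peaks or pairs could enter. In the order of −log10 q of at least 2, equal numbers, below 1000 bp, below 2000 bp, 80% overlap and 33.3% overlap, the median centre shift was 35, 32.5, 33, 54.5, 22.5 and 53.5 bp and the spacing 50.4, 80.7, 48.8, 17.9, 40.2 and 22.5 kb. In the first 5 of these settings the lower edge differed by 32, 32, 33, 47.0 and 26.5 bp. The higher edge differed by 34, 27.0, 29.0 and 45.0 bp with −log10 q of at least 2, equal numbers, 80% and 33.3% overlap. The share of centres inside genes was 83.2 and 85.8% with −log10 q of at least 2 and equal numbers. The median log2 width ratio was 0.014 with equal numbers and 0.013 below 1000 bp, of the other sign than the main value of -0.0026. The median log2 ratio of all pairs was -0.013 at 80% overlap, -0.047 with −log10 p and -0.052 with −log10 q in place of fold, and 0.0055, of the other sign, without centring; the cause was not tested. The difference between pairs between and inside genes, recomputed under settings added after seeing the data, was -0.035, lay between -0.037 and -0.027 in all settings that keep the fold, and was -0.28 with −log10 p and -0.37 with −log10 q. No paired analysis was possible because both lists hold 1 value per peak and none for single replicates. Leaving out a replicate could not be done either. Depth was not given, so what it limits is unknown.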
